A study of Arabidopsis thaliana with 12 samples.

Results

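Transcript levels of 40 root hair genes were read from RNA-seq of whole Arabidopsis thaliana seedlings exposed for 90 min to 1 of 3 acyl-CoAs or to surfactant alone. The 40 genes are root hair transcription factors, root-hair-specific (RHS) genes, wall-loosening and structural wall protein genes, peroxidases and genes of tip growth signalling and ion transport. They were chosen by gene identifier out of 28642 genes listed, by a rule that uses no measured value. Earlier results of these data were known when they were chosen. The low-count filter left 17036 genes, 37 of the 40 among them; RSL1, RHS1 and RHS6 had too few reads and were not tested. All plants were wild-type, grown for 14 days in liquid medium with 0.5% sucrose under 16 h of light at 21 °C and 8 h of dark at 18 °C. The control group received 0.01% Pluronic F68, a non-ionic surfactant, which every other group received too. The other groups received, in the same surfactant, 0.1% of C18:0 CoA (stearoyl-CoA, a saturated chain of 18 carbons), C18:1 CoA (oleoyl-CoA, 18 carbons with 1 double bond) or C16:0 CoA (palmitoyl-CoA, a saturated chain of 16 carbons). An acyl-CoA is the coenzyme A thioester of a fatty acid, the form in which cells use it. Each group had 3 libraries, each from a pool of 80 plants, which the labels call biological replicates. In a whole seedling, fewer root hair cells and less of a transcript per root hair cell cannot be told apart.

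A root hair is an outgrowth of a single epidermal cell of the root that extends at its tip and takes up water and nutrients. Its fate is set by a group of patterning factors. RHD6 and its relatives of the basic helix-loop-helix family, RSL4 among them, then switch on genes that build the hair. Those genes encode expansins, xyloglucan endotransglucosylases and other enzymes that loosen the wall, proline-rich proteins and extensins that make it up, peroxidases that cross-link it, and the oxidase, small GTPase regulators, kinases and ion pumps that keep growth at the tip.

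Depth ranged from 348140 to 6126277 exon reads per library, 17.6-fold. The 3 shallow libraries, those with the fewest reads, were replicate 2 of C18:0 CoA, replicate 1 of C18:1 CoA and replicate 2 of C16:0 CoA. A level of 3 reads stood for 0.490 CPM (reads scaled to a common library size) in the deepest library and for 8.62 CPM in the one with the fewest reads, a limit set by counting error alone. Between 39 and 40 of the 40 genes had a read in each of the 9 deeper libraries, and 33, 32 and 32 in the 3 shallow ones. At most 3.57% of the 50-base stretches of a gene's exons recurred elsewhere in the genome (RHS14). The annotated spans of 8 of the 40 genes overlapped another gene. The longest overlap was 1304 bases, between the peroxidase gene AT4G26010 and a gene on the opposite strand, and whether strand was used in counting is not given in the sources used here.

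Many root hair genes carry the root hair element (RHE), a sequence to which RSL4 and related factors are known to bind. It is degenerate and is named here without its letters. Within the 500 bases before the gene start, on either strand, it was found in 16 of the 40 genes and in 400 of 28008 genes of the genome (1.43%). RHS genes were in part defined in earlier work by this element, so its frequency among them is not an independent result. It was found before 4 of 7 structural wall protein genes, 2 of 4 peroxidase genes, 3 of 10 wall enzyme genes, 3 of 11 signalling and transport genes, 4 of 5 other root hair genes and none of 3 regulator genes. The related G-box, CACGTG, occurred before 3 of the 40 genes (7.5%) and before 9.33% of all genes. The matches before 6 genes whose values are described in detail are shown with 10 bases on each side, read 5′ to 3′ on the strand of the gene from the RefSeq sequence of TAIR10.1. Capitals mark the match.
EXPA7: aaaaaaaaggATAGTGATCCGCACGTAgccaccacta
PRP3: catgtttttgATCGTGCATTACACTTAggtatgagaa
PRP1: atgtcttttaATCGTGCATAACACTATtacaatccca
RHS13: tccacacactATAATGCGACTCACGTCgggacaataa
RHS17: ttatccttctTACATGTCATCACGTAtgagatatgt
RHS9: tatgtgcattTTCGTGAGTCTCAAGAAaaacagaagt
The stretch before EXPA7 is chr1:4276417-4276453 (plus strand) and ends its match 61 bases before the gene start of the RefSeq annotation. Those before PRP3, chr3:23182545-23182581, and PRP1, chr1:20504762-20504798, both on the plus strand, hold the element on the opposite strand. The stretches before RHS13, chr4:993223-993259 (minus strand), and RHS17, chr4:17975441-17975476 (plus strand), hold it in the gene's own direction, and the one before RHS9, chr1:26030410-26030446 (minus strand), on the opposite strand. A match is a description of the sequence and not evidence of binding.

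Root hair genes stood lower with C18:1 CoA and C16:0 CoA than in the control as a list, and less so with C18:0 CoA, but no single gene passed the test over all genes. The median log2 fold change of the 37 tested genes was -0.17 with C18:0 CoA, -0.58 with C18:1 CoA and -0.47 with C16:0 CoA. Over all 17036 genes the medians were 0.00, 0.00 and -0.00. Negative fold changes were found for 30 of 37 genes in the C18:0 CoA comparison, 34 in that of C18:1 CoA and 35 in that of C16:0 CoA, against 49.6%, 49.6% and 50.1% of all genes. For the average of the 3 acyl-CoAs against the control the median was -0.45, with 35 of 37 negative. These comparisons share their control libraries and are not independent of each other. In edgeR's quasi-likelihood test with Benjamini-Hochberg adjustment, 0 of 17036 genes (0%) passed an adjusted p of 0.05 in any of 7 comparisons, and the smallest adjusted p of a root hair gene was 0.901, for PRP1 with C16:0 CoA.

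At an unadjusted p below 0.05, none of the 37 genes was lower with C18:0 CoA, where 0.657% of all genes were. With C18:1 CoA 9 were lower, where 1.27% of all genes were, and none was higher. They were RHS12, PRP1, EXPA7, AT4G26010, RHS18, GH9C1, AT1G30870, PRP3 and MOP10. With C16:0 CoA 7 were lower, where 1.29% of all genes were, and none was higher. They were PRP1, RHS17, AT1G30870, GH9C1, RHS8, XTH13 and PRP3. For the average of the acyl-CoAs 12 were lower than in the control, where 1.15% of all genes were. Of these names GH9C1, MOP10, RHS18, RHS8 and XTH13 were chosen after their values were seen. Counted in either direction, DESeq2 gave 0, 9, 5 and 9 root hair genes at an unadjusted p below 0.05 in these 4 comparisons. Limma voom gave 1, 13, 8 and 15, and neither method called a root hair gene over all genes. Shares of all genes at that threshold are not given for these methods. At an adjusted p of 0.05 DESeq2 called 2 other genes with C18:1 CoA and 1 for C18:1 CoA against C16:0 CoA, and limma voom 1 with C18:1 CoA.

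Several of these counts changed when a single library was left out. Counts from other fits, here and below, take genes in either direction unless said to be lower. The share of all genes at that threshold can change with the fit and is given for these counts only where stated. Where it is not given, a change in a count cannot be told apart from a change over all genes. Without control replicate 2 the counts with C18:1 CoA, C16:0 CoA and the average were 2, 2 and 1, and the medians -0.35, -0.31 and -0.30. The C18:0 CoA median was -0.06 without that library, -0.29 if control replicate 1 was left out and -0.31 if replicate 1 of C18:0 CoA was. The C18:1 CoA count was 14 when control replicate 1 was left out, 4 when replicate 2 of C18:1 CoA was and 17 when replicate 2 of C16:0 CoA was. With C18:0 CoA the count of 0 was 1 when any of these was left out: control replicates 1 and 3, replicate 1 of C18:0 CoA, replicate 1 of C18:1 CoA, and replicates 1 and 2 of C16:0 CoA. The C16:0 CoA count was 3 and the average's count 7 without C16:0 CoA replicate 3. Without the 3 shallow libraries together, when 39 of the 40 genes and 17787 genes in all were tested, 21 were lower with C18:1 CoA, where 3.55% of all genes were, and 11 with C16:0 CoA, where 2.7% were, with medians of -0.60 and -0.46. All control and C18:0 CoA libraries and C18:1 CoA replicates 1 and 2 share the first part of their index barcode. Among these libraries alone the median of C18:0 CoA was -0.20 and that of C18:1 CoA was -0.60. No C16:0 CoA library carries it, so that group gave no value. With sequencing lane as a covariate, which left 1 residual degree of freedom, the medians were -0.03, -0.33 and -0.56. Lanes 5, 6, 7 and 8 each held 1 library, so in that fit C18:0 CoA rested on replicate 1 and C18:1 CoA on replicate 3.

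Each library was given the median, over the 37 genes, of log2 CPM centred on the gene's mean over the 12 libraries. It was 0.24, 0.63 and 0.27 in control replicates 1 to 3. The C18:0 CoA libraries had 0.24, -0.05 and 0.23, those of C18:1 CoA had -0.18, -0.20 and -0.10, and those of C16:0 CoA had 0.01, -0.14 and -0.22. All 6 libraries of C18:1 CoA and C16:0 CoA lay below all 3 controls, and C18:0 CoA replicate 1 overlapped the controls. The summed level of the 40 genes was 1304 ± 261 CPM (SD, n = 3) in the control and 1148 ± 89.0 CPM with C18:0 CoA. It was 937 ± 33.2 CPM with C18:1 CoA and 971 ± 59.4 CPM with C16:0 CoA. The control sums were 1153, 1605 and 1154 CPM. Control replicate 2 held the highest value of 18 of the 37 genes among all libraries, and of 22 of 37 among the 9 deeper ones, where it held the highest value of 8.22% of all genes. Without it the 2 remaining control sums still lay above all 6 sums of C18:1 CoA and C16:0 CoA, the highest of which was 1039 CPM.

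**Figure D1:**
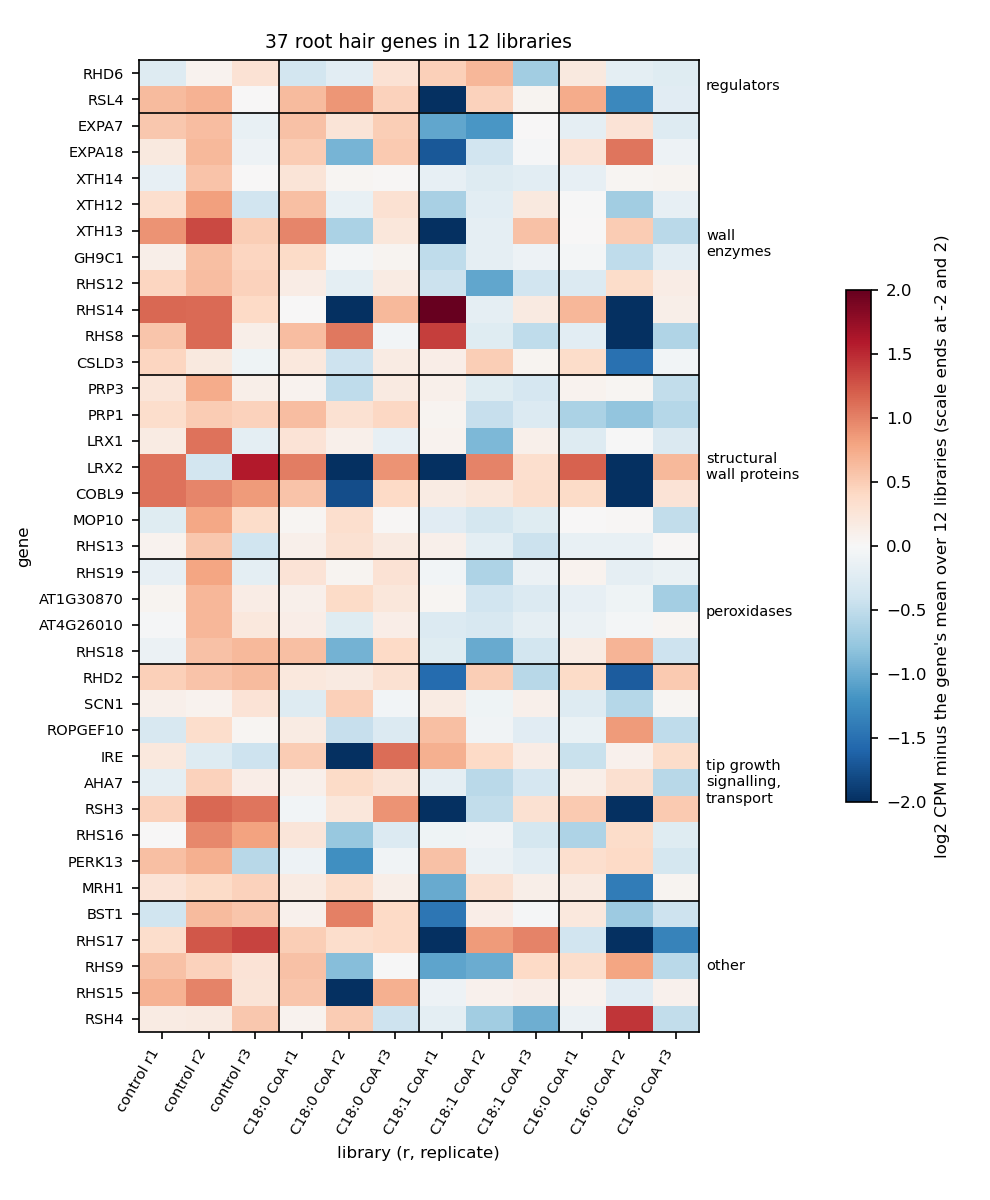
Levels of the 37 tested root hair genes (rows, grouped by role) in the 12 libraries (columns, grouped by treatment) as log2 CPM minus the gene's mean over all libraries. The column of control replicate 2 is mostly above 0, with a median of 0.63, the C18:1 CoA columns are mostly below it, with medians of -0.20 to -0.10, and the deepest colours of either sign fall mostly in low-count genes of the 3 shallow libraries.

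Counting genes whose 3 libraries all lay below all 3 controls gave 3 of 37 with C18:0 CoA, where 6.47% of all genes did so. With C18:1 CoA the count was 12, where 5.15% of all genes did so, and with C16:0 CoA it was 11, where 5.96% did so. In 2 genes, RHS12 and COBL9, all 9 acyl-CoA libraries lay below all 3 controls, where 0.434% of all genes did so.

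Per kilobase of exon, mean levels over the 12 libraries ran from 1.09 CPM per kb for IRE to 120 CPM per kb for RHS13 among the 37 tested genes. Their median was 8.16 CPM per kb, against 16.1 for all genes tested. The extensin-related gene RHS13 led, followed by the wall enzyme gene XTH14 with 95.3, the peroxidase gene AT4G26010 with 72.9, PRP3 with 72.4 and the peroxidase gene RHS19 with 69.7 CPM per kb. The regulators RSL4 and RHD6 stood at 5.87 and 4.58 CPM per kb, and RSL1 at 0.215 CPM per kb from 9 reads in all.

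Of the regulators, neither tested gene lay apart from the control in any treatment. RHD6 (AT1G66470; chromosome 1, 24795214 to 24796988), the factor that starts hair outgrowth, stood at 5.07, 6.49 and 7.72 CPM in control replicates 1 to 3, 4.60, 5.26 and 7.67 CPM with C18:0 CoA, 8.85, 10.2 and 3.51 CPM with C18:1 CoA and 7.201, 5.33 and 5.08 CPM with C16:0 CoA. Its groups overlapped throughout, and its averaged log2 fold change was 0.01 (95% interval -0.82 to 0.85). RSL4 (AT1G27740; chromosome 1, 9654688 to 9656089), the factor that sets how long the hair grows, stood at 8.72, 9.13 and 5.41 CPM in control replicates 1 to 3, 8.73, 10.5 and 7.67 CPM with C18:0 CoA, 0, 7.71 and 5.62 CPM with C18:1 CoA and 9.45, 1.78 and 4.51 CPM with C16:0 CoA. The lowest values, 0 and 1.78 CPM, were 0 reads in C18:1 CoA replicate 1 and 1 read in C16:0 CoA replicate 2, both shallow. The other C18:1 CoA and C16:0 CoA libraries overlapped the controls, and the averaged log2 fold change was -0.25 (95% interval -1.09 to 0.59).

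Wall-loosening and wall enzyme genes stood lower with C18:1 CoA and C16:0 CoA, with median log2 fold changes of -0.62 and -0.56 over 10 genes, and of -0.19 with C18:0 CoA. In each of the 3, 9 of the 10 were negative, and 0 (C18:0 CoA), 3 (C18:1 CoA) and 3 (C16:0 CoA) had an unadjusted p below 0.05. EXPA7 (AT1G12560; chromosome 1, 4276519 to 4277899), a root hair expansin that loosens the wall at the tip, stood at 27.9, 29.6 and 17.0 CPM in control replicates 1 to 3, 28.9, 22.8 and 27.1 CPM with C18:0 CoA, 8.85, 8.02 and 19.0 CPM with C18:1 CoA and 16.7, 23.1 and 15.8 CPM with C16:0 CoA. In the C18:1 CoA group, replicates 1 and 2 lay far below every control, while replicate 3 lay just above control replicate 3. The C18:1 CoA value of replicate 1 rests on 3 reads, that of replicate 2 on 26. The log2 fold change with C18:1 CoA was -0.96 (SE 0.344, unadjusted p = 0.0117 in edgeR), and with C16:0 CoA -0.53 (SE 0.345).

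RHS12 (AT3G10710; chromosome 3, 3352289 to 3354237), of the pectin methylesterase family that alters wall pectin, was lower in all 9 acyl-CoA libraries than in any control. It stood at 16.7, 19.1 and 17.0 CPM in control replicates 1 to 3, 13.6, 10.5 and 13.7 CPM with C18:0 CoA, 8.85, 5.55 and 9.14 CPM with C18:1 CoA and 9.90, 16.0 and 13.5 CPM with C16:0 CoA. The lowest values were those of C18:1 CoA, whose log2 fold change of -1.21 (SE 0.354, unadjusted p = 0.00294 in edgeR) was the second largest of the list in that comparison. With C18:0 CoA the log2 fold change was -0.43 (SE 0.330) and with C16:0 CoA -0.49 (SE 0.345). The RHS12 values of the shallow libraries, 10.5 CPM (C18:0 CoA), 8.85 CPM (C18:1 CoA) and 16.0 CPM (C16:0 CoA), were 6, 3 and 9 reads.

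The xyloglucan endotransglucosylase genes, whose enzymes cut and rejoin the xyloglucan that ties cellulose together, include XTH12, XTH13 and XTH14. XTH14 (AT4G25820; chromosome 4, 13130297 to 13131788) stood at 91.2, 152 and 104 CPM in control replicates 1 to 3, 123, 105 and 104 CPM with C18:0 CoA, 91.5, 85.2 and 88.1 CPM with C18:1 CoA and 91.4, 105 and 106 CPM with C16:0 CoA. Control replicate 2 was far above the rest, and the other controls lay within the range of the acyl-CoA libraries. The averaged log2 fold change of XTH14 was -0.22 (95% interval -0.58 to 0.13), and 0.029 without control replicate 2. XTH12 (AT5G57530; chromosome 5, 23300321 to 23301605), next to XTH13 (chromosome 5, 23302996 to 23304049) in the genome, stood at 29.8, 41.8 and 17.8 CPM in control replicates 1 to 3, 35.8, 21.0 and 29.1 CPM with C18:0 CoA, 14.8, 20.1 and 26.9 CPM with C18:1 CoA and 23.4, 14.2 and 20.9 CPM with C16:0 CoA. Control replicate 3 lay among the lowest values, so the groups overlapped, and the averaged log2 fold change was -0.36 (95% interval -0.88 to 0.15). The other 6 wall enzyme genes, EXPA18, XTH13, GH9C1, RHS14, RHS8 and CSLD3, had control means of 10.5 to 64.9 CPM and averaged log2 fold changes below 0.

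**Figure D2:**
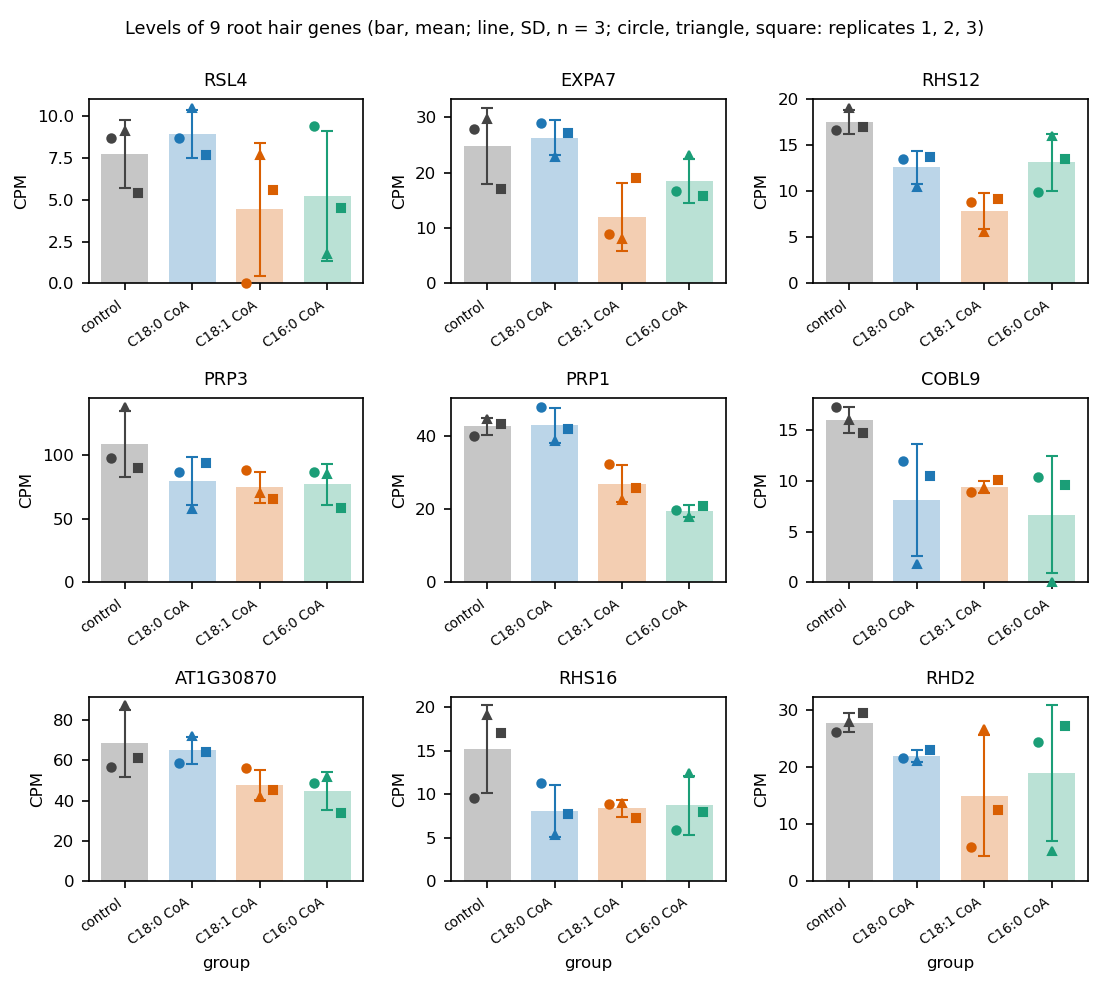
CPM (vertical axis, from 0) of 9 root hair genes in the 4 groups, with the mean as a bar, the SD as a line (n = 3) and each replicate as a symbol. For RHS12 and COBL9 all acyl-CoA libraries lie below all controls, and for PRP1 all C18:1 CoA and C16:0 CoA libraries lie below all controls and below all C18:0 CoA libraries.

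Structural wall protein genes had median log2 fold changes of -0.25, -0.65 and -0.52 with C18:0 CoA, C18:1 CoA and C16:0 CoA over 7 genes. All 7 were negative with C18:1 CoA and with C16:0 CoA, and 5 with C18:0 CoA. PRP1 (AT1G54970; chromosome 1, 20505000 to 20506488), a proline-rich wall protein of root hairs, stood at unlike levels with the 3 acyl-CoAs. Its levels were 40.1, 44.6 and 43.3 CPM in control replicates 1 to 3, 48.0, 38.6 and 42.0 CPM with C18:0 CoA, 32.5, 22.5 and 25.8 CPM with C18:1 CoA and 19.8, 17.8 and 20.9 CPM with C16:0 CoA. The C18:0 CoA libraries lay around the controls, while every C18:1 CoA and C16:0 CoA library lay below them, those of C16:0 CoA lowest. The log2 fold change of PRP1 was -0.75 with C18:1 CoA (SE 0.231, unadjusted p = 0.00454 in edgeR) and -1.10 with C16:0 CoA (SE 0.239, unadjusted p = 0.000199).

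PRP3 (AT3G62680; chromosome 3, 23182722 to 23183994), a proline-rich protein needed for normal hair shape and second to RHS13 in level per kilobase among the structural wall proteins, stood at 97.5, 138 and 89.6 CPM in control replicates 1 to 3, 86.8, 57.9 and 94.1 CPM with C18:0 CoA, 88.5, 70.0 and 65.6 CPM with C18:1 CoA and 86.9, 85.2 and 58.7 CPM with C16:0 CoA. Of the 9 acyl-CoA libraries, 8 lay below all controls, and C18:0 CoA replicate 3 lay between them. Its log2 fold changes were -0.42, -0.59 and -0.52 with C18:0 CoA, C18:1 CoA and C16:0 CoA, and -0.51 for the average (SE 0.188, unadjusted p = 0.0144 in edgeR). COBL9 (AT5G49270; chromosome 5, 19971909 to 19974444), a COBRA-like protein of the cell surface that is needed for hair tip growth, stood at 17.3, 16.0 and 14.7 CPM in control replicates 1 to 3, 11.9, 1.75 and 10.5 CPM with C18:0 CoA, 8.85, 9.26 and 10.1 CPM with C18:1 CoA and 10.4, 0 and 9.59 CPM with C16:0 CoA. All 9 acyl-CoA values lay below the lowest control. The values of 1.75, 8.85 and 0 CPM were 1, 3 and 0 reads in shallow libraries. The log2 fold changes of COBL9 were -0.75, -0.75 and -0.996, and -0.83 for the average (SE 0.367, unadjusted p = 0.0357).

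RHS13 (AT4G02270; chromosome 4, 992175 to 993038), of a family of extensin-related wall proteins, stood at 92.8, 129 and 66.4 CPM in control replicates 1 to 3, 94.7, 109 and 101 CPM with C18:0 CoA, 94.4, 76.8 and 65.4 CPM with C18:1 CoA and 79.7, 79.9 and 89.7 CPM with C16:0 CoA. Control replicate 2 held the highest of these values and control replicate 3 the second lowest, and the groups overlapped. Its averaged log2 fold change was -0.17 (95% interval -0.56 to 0.21), and 0.092 without control replicate 2. Over all 7 genes of this group, which also holds the leucine-rich repeat extensin genes LRX1 and LRX2 and the wall protein gene MOP10, averaged log2 fold changes ran from -0.83 to -0.17.

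Peroxidase genes had median log2 fold changes of -0.09, -0.58 and -0.33 with C18:0 CoA, C18:1 CoA and C16:0 CoA, and all 4 were negative in each. AT1G30870 (chromosome 1, 10991485 to 10993023), a class III peroxidase of the wall, stood at 56.8, 87.2 and 61.0 CPM in control replicates 1 to 3, 58.6, 71.9 and 64.2 CPM with C18:0 CoA, 56.1, 42.0 and 45.2 CPM with C18:1 CoA and 48.6, 51.5 and 33.8 CPM with C16:0 CoA. The C18:1 CoA and C16:0 CoA libraries lay below all controls, those of C18:0 CoA among them. Its log2 fold change was -0.58 with C18:1 CoA (SE 0.238, unadjusted p = 0.0245 in edgeR) and -0.65 with C16:0 CoA (SE 0.239, unadjusted p = 0.0142). AT4G26010 (chromosome 4, 13200593 to 13201941), the peroxidase gene with the long overlap, stood at 88.01, 141 and 104 CPM in control replicates 1 to 3, 98.1, 75.4 and 97.7 CPM with C18:0 CoA, 73.8, 71.6 and 78.7 CPM with C18:1 CoA and 82.4, 87.0 and 91.9 CPM with C16:0 CoA. Only the C18:1 CoA libraries of this gene all lay below all controls, with a log2 fold change of -0.57 (SE 0.214, unadjusted p = 0.0155). RHS19 (AT5G67400; chromosome 5, 26894856 to 26896488), a further peroxidase, stood at 73.9, 143 and 71.8 CPM in control replicates 1 to 3, 99.5, 85.9 and 101 CPM with C18:0 CoA, 79.7, 53.7 and 75.7 CPM with C18:1 CoA and 86.4, 72.8 and 75.6 CPM with C16:0 CoA. Control replicate 2 of RHS19 stood far above the other 11 libraries, and the averaged log2 fold change was -0.28 (95% interval -0.70 to 0.15), and 0.13 without that library. With RHS18, also a peroxidase, the averaged log2 fold changes of the 4 genes ran from -0.45 to -0.28.

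Genes of tip growth signalling and ion transport had median log2 fold changes of -0.17, -0.46 and -0.36 over the 9 tested, with none at an unadjusted p below 0.05 in any single treatment. RHD2 (AT5G51060; chromosome 5, 20757284 to 20762431), the NADPH oxidase that makes reactive oxygen at the hair tip, stood at 26.0, 27.8 and 29.4 CPM in control replicates 1 to 3, 21.6, 21.0 and 23.0 CPM with C18:0 CoA, 5.90, 26.5 and 12.4 CPM with C18:1 CoA and 24.3, 5.33 and 27.1 CPM with C16:0 CoA. All C18:0 CoA libraries lay below all controls, by a log2 fold change of -0.32 (95% interval -1.12 to 0.47). The values of 5.90 and 5.33 CPM were 2 and 3 reads, and the C18:1 CoA and C16:0 CoA groups each held a library as high as the controls. The averaged log2 fold change of RHD2 was -0.45 (95% interval -1.08 to 0.17). SCN1 (AT3G07880; chromosome 3, 2513971 to 2515823), which limits a cell to a single hair site, had the highest level per kilobase of this group. It stood at 76.6, 74.8 and 86.5 CPM in control replicates 1 to 3, 59.5, 99.96 and 68.6 CPM with C18:0 CoA, 79.7, 67.6 and 77.1 CPM with C18:1 CoA and 59.4, 47.9 and 73.3 CPM with C16:0 CoA. The C16:0 CoA libraries lay below all controls, with a log2 fold change of -0.36 (95% interval -0.83 to 0.11), and the others overlapped them.

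Of the receptor-like kinase genes, MRH1 (AT4G18640; chromosome 4, 10259678 to 10263764), whose loss shortens hairs, stood at 29.7, 32.04 and 34.0 CPM in control replicates 1 to 3, 27.6, 31.6 and 26.7 CPM with C18:0 CoA, 11.8, 30.5 and 26.7 CPM with C18:1 CoA and 27.9, 8.88 and 25.4 CPM with C16:0 CoA. Its C16:0 CoA libraries lay below all controls, the lowest from the shallow replicate 2, with a log2 fold change of -0.47 (95% interval -1.13 to 0.18). RHS16 (AT4G29180; chromosome 4, 14385593 to 14389689) stood at 9.51, 19.1 and 17.0 CPM in control replicates 1 to 3, 11.3, 5.26 and 7.67 CPM with C18:0 CoA, 8.85, 8.95 and 7.26 CPM with C18:1 CoA and 5.85, 12.4 and 7.90 CPM with C16:0 CoA. Control replicate 1 of RHS16 lay well below the other controls and within the range of C18:0 CoA and C16:0 CoA, and the C18:1 CoA libraries lay below all controls. Its log2 fold changes were -0.75, -0.87 and -0.91, and -0.84 for the average (SE 0.320, unadjusted p = 0.0164 in edgeR). The RHS16 values of the shallow libraries, 5.26, 8.85 and 12.4 CPM, were 3, 3 and 7 reads. PERK13 (AT1G70460; chromosome 1, 26555846 to 26559284), a proline-rich receptor-like kinase known to restrain hair growth, stood at 26.6, 28.8 and 11.59 CPM in control replicates 1 to 3, 16.1, 7.01 and 16.6 CPM with C18:0 CoA, 26.6, 16.0 and 15.0 CPM with C18:1 CoA and 22.1, 23.1 and 13.5 CPM with C16:0 CoA. Control replicate 3 was lower than most acyl-CoA libraries, so no group stood apart. The log2 fold change with C18:0 CoA, with the smallest p of the list in that comparison, was -0.68 (SE 0.363, unadjusted p = 0.0773). The kinase gene IRE, chosen after its values were seen, had the highest log2 fold change of the list with C18:0 CoA, 0.76 (95% interval -0.49 to 2.01), from a control mean of 2.97 CPM. Averaged log2 fold changes of the 9 tested genes ran from -0.84 to 0.45, and the group also holds ROPGEF10, the proton pump gene AHA7 and the kinase gene RSH3.

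The 5 other root hair genes had median log2 fold changes of -0.32, -0.69 and -0.49. RHS17 (AT4G38390; chromosome 4, 17975776 to 17978380), of the O-fucosyltransferase family, stood at 3.49, 7.10 and 7.72 CPM in control replicates 1 to 3, 3.91, 3.51 and 3.63 CPM with C18:0 CoA, 0, 5.25 and 5.86 CPM with C18:1 CoA and 1.80, 0 and 0.564 CPM with C16:0 CoA. Only the C16:0 CoA libraries of RHS17 lay below all controls, with 4, 0 and 1 reads against 22, 35 and 10 in the controls. The log2 fold change was -2.41 (SE 0.774, unadjusted p = 0.00580 in edgeR), the largest of the list. BST1 (AT5G65090; chromosome 5, 26004017 to 26006851), a phosphatase-like protein needed for hair shape, stood at 6.82, 14.8 and 13.9 CPM in control replicates 1 to 3, 9.88, 19.3 and 12.5 CPM with C18:0 CoA, 2.95, 10.2 and 9.14 CPM with C18:1 CoA and 10.8, 5.33 and 6.77 CPM with C16:0 CoA. The groups of BST1 overlapped, and its averaged log2 fold change was -0.24 (95% interval -0.97 to 0.49), and 0.014 without control replicate 2. RHS9 (AT1G69240; chromosome 1, 26027976 to 26030234), of the methylesterase family, stood at 10.8, 9.74 and 8.497 CPM in control replicates 1 to 3, 10.8, 3.51 and 6.86 CPM with C18:0 CoA, 2.95, 3.09 and 9.37 CPM with C18:1 CoA and 9.002, 12.4 and 4.51 CPM with C16:0 CoA. Its groups also overlapped, and the averaged log2 fold change was -0.43 (95% interval -1.25 to 0.38). In the shallow libraries of C18:0 CoA, C18:1 CoA and C16:0 CoA, RHS9 had 2, 1 and 7 reads. With RHS15 and RSH4 the averaged log2 fold changes of this group ran from -1.10 to -0.24.

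**Figure D3:**
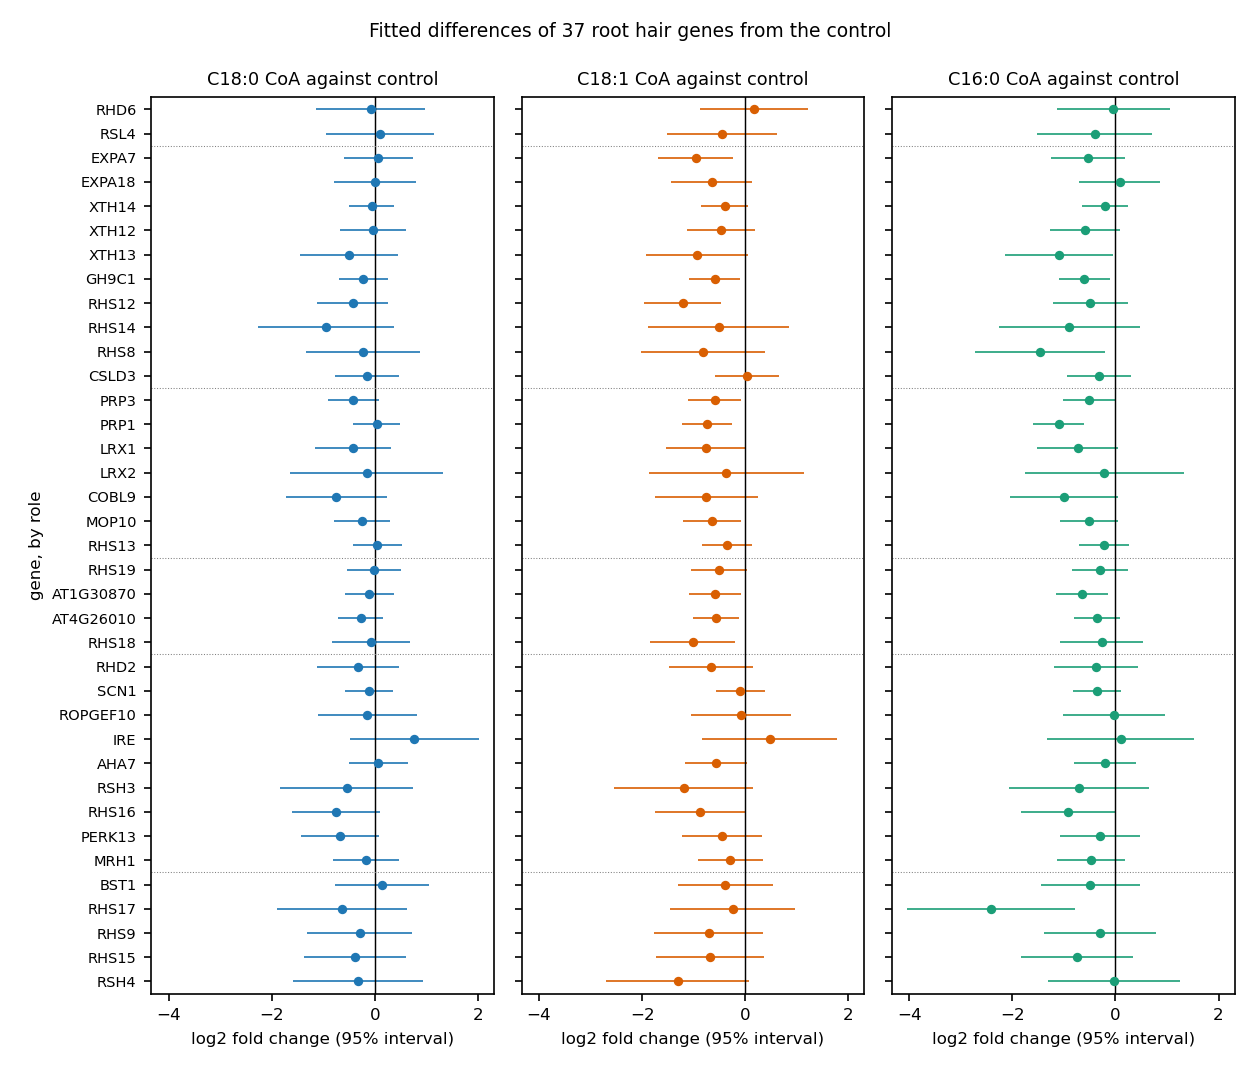
Log2 fold changes against the control (horizontal axis) of the 37 tested root hair genes, by role, with 95% intervals, in 3 panels that share the control libraries. Most points lie below 0 in each panel, 30, 34 and 35 of 37, and the intervals of single genes are wide, so that few of them exclude 0.

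Genes with and without the root hair element upstream were not far apart. The median log2 fold change of the 15 tested genes with it was -0.29, -0.69 and -0.51 with C18:0 CoA, C18:1 CoA and C16:0 CoA. That of the 22 tested genes without it was -0.17, -0.52 and -0.44.

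At the same dose and time, C18:1 CoA and C18:0 CoA differ by 1 double bond. The median log2 fold change of C18:1 CoA against C18:0 CoA was -0.37, with 30 of 37 genes negative. At an unadjusted p below 0.05, 5 genes were lower with C18:1 CoA, where 1.78% of all genes were. They were PRP1, EXPA7, RHS18, AHA7 and RHS12. RHS18 and AHA7, a plasma membrane proton pump gene, were chosen after their values were seen. EXPA7 had a log2 fold change of -1.03 (95% interval -1.78 to -0.29), and its 3 C18:1 CoA libraries lay below its 3 C18:0 CoA libraries. For PRP1 it was -0.78 (95% interval -1.27 to -0.28), with no overlap either. The count was 2 when replicate 1 or 3 of C18:0 CoA or replicate 2 of C18:1 CoA was left out, and 3 when control replicate 3 or replicate 1 of C16:0 CoA was. DESeq2 gave 3 genes, and the median was -0.23 without C18:0 CoA replicate 1. The summed level was lower with C18:1 CoA in every pair of libraries, with differences of -315 to -81.8 CPM.

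C18:0 CoA and C16:0 CoA are both saturated and differ by 2 carbons. The median log2 fold change of C18:0 CoA against C16:0 CoA was 0.25, with 6 of 37 genes negative. At an unadjusted p below 0.05, 3 genes were higher with C18:0 CoA, where 1.1% of all genes were. They were PRP1, AT1G30870 and RHS17. PRP1 had a log2 fold change of 1.14 (95% interval 0.63 to 1.65), and RHS17 of 1.78 (95% interval 0.04 to 3.52). The median was 0.39 without C16:0 CoA replicate 1. The count was 1 without C18:0 CoA replicate 2, without C16:0 CoA replicate 3 or in DESeq2. The summed level was higher with C18:0 CoA in every pair of libraries, by 7.70 to 282 CPM.

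Between C18:1 CoA and C16:0 CoA the median was -0.05, with 20 of 37 genes negative and no gene lower at an unadjusted p below 0.05, where 1.94% of all genes were. RHS17 was higher with C18:1 CoA, by a log2 fold change of 2.17 (95% interval 0.49 to 3.85), the single gene of the list higher at an unadjusted p below 0.05, where 0.898% of all genes were. The median was 0.06 without C16:0 CoA replicate 1. The count of 1 was 2 when replicate 3 of C18:1 CoA or replicate 1 or 3 of C16:0 CoA was left out. PRP1 was lower with C16:0 CoA in each library, with a log2 fold change of C18:1 CoA against C16:0 CoA of 0.36 (95% interval -0.18 to 0.90). The interval of PRP1 spans 0, and a missed threshold does not show that both compounds act alike. No gene of the list passed over all genes between any pair of acyl-CoAs.

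In the authors' deposited table, which gives FDR-corrected p-values from Baggerley's test on proportions of reads, some root hair genes were past 0.05, all of them lower. With C18:0 CoA only SCN1 was, where 0.981% of all genes were lower. Shares in this paragraph are of the 28642 genes listed, not of the 17036 tested in edgeR. Of those listed, 6448 had no exon read in any library, while every root hair gene had reads. The authors' deposited table gave SCN1 a corrected p of 0.0447. With C18:1 CoA there were 5 in the authors' deposited table, RHS12, PRP1, RHS18, RHS16 and RSH4, where 1.28% of all genes were. The authors' deposited table gave PRP1 a p of 2.83e-09 there and RHS12 0.000943. With C16:0 CoA there were 3 in the authors' deposited table, PRP1 (p = 4.36e-08), RHS16 (p = 0.000193) and RHS17 (p = 0.000186), where 0.751% of all genes were. For C18:1 CoA against C18:0 CoA the authors' deposited table had 4, RHS8, RHS13, AT1G30870 and AHA7, where 2.32% of all genes were. For C16:0 CoA against either C18 compound the authors' deposited table had 0.

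Lists of related genes were described in the same way. Of 20 further root hair genes, among them RSL2, RSL3, the LRL factors, ROP small GTPases, FER and AUX1, 18 were tested and had medians of -0.07, -0.18 and -0.16 with C18:0 CoA, C18:1 CoA and C16:0 CoA. Their centred medians were 0.11 to 0.22 in the control libraries, above the 0.06 to 0.08 of C18:0 CoA and the -0.62 to 0.08 of C18:1 CoA, and overlapped those of C16:0 CoA, -0.15 to 0.20. In them 11, 16 and 13 were negative and 0, 1 and 0 were lower at an unadjusted p below 0.05. That gene was EXT12, an extensin, with a log2 fold change of -0.75 (SE 0.285, unadjusted p = 0.0164 in edgeR). The 7 tested genes of epidermal patterning, which set the hair and non-hair cell files, had medians of -0.27, -0.04 and -0.27. Of these 7, 5, 4 and 6 were negative, and none was at an unadjusted p below 0.05. SCM, a receptor-like kinase of patterning, had log2 fold changes of -0.62, 0.64 and -0.69.

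Markers of other root cell types (13 of 16 tested, of endodermis, stele, root cap and meristem among others) had medians of -0.13, 0.03 and -0.33, with 8, 6 and 10 negative. Their summed level was 1666 to 2166 CPM in the control, 1555 to 2016 with C18:0 CoA, 1585 to 2149 with C18:1 CoA and 1012 to 1648 with C16:0 CoA. It was lowest in C16:0 CoA replicate 2, where 9 of 16 had a read and the centred median was -1.46, against -0.14 for the root hair genes of that library. At an unadjusted p below 0.05, 0, 1 and 2 of the 13 tested were lower, and none was higher. Of all genes, 0.657%, 1.27% and 1.29% were lower at that threshold. PLT2, of the root meristem, TIP2;2, a root aquaporin, and PYK10 are named for their small p-values and do not stand for the list. PLT2 had log2 fold changes of -1.28, -1.23 and -1.57 (unadjusted p = 0.0541, 0.0617 and 0.0342 in edgeR). TIP2;2 had -0.51 with C18:1 CoA (unadjusted p = 0.0380 in edgeR), where 7 of the 13 genes were positive. PYK10 had -0.52 with C16:0 CoA (unadjusted p = 0.0167 in edgeR), where 10 of the 13 genes were negative. None of these named genes passed over all genes. Leaf photosynthetic genes (10 of 10 tested) had medians of -0.04, -0.20 and 0.25, with 6, 10 and 1 negative. Their summed level was 11282 to 16324 CPM in the control, 11507 to 17975 with C18:0 CoA, 7626 to 15217 with C18:1 CoA and 11759 to 23064 with C16:0 CoA. It was highest in C16:0 CoA replicate 2 and lowest in C18:1 CoA replicate 2, and all 10 had reads in every library. Without C16:0 CoA replicate 2 the root hair median with C16:0 CoA was -0.47, as with it. In C16:0 CoA replicates 1 and 3 the summed level of the other root cell types was 1648 and 1540 CPM, also below all 3 controls. The part of these other cell types in the values of the root hair genes was not tested.

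**Figure D4:**
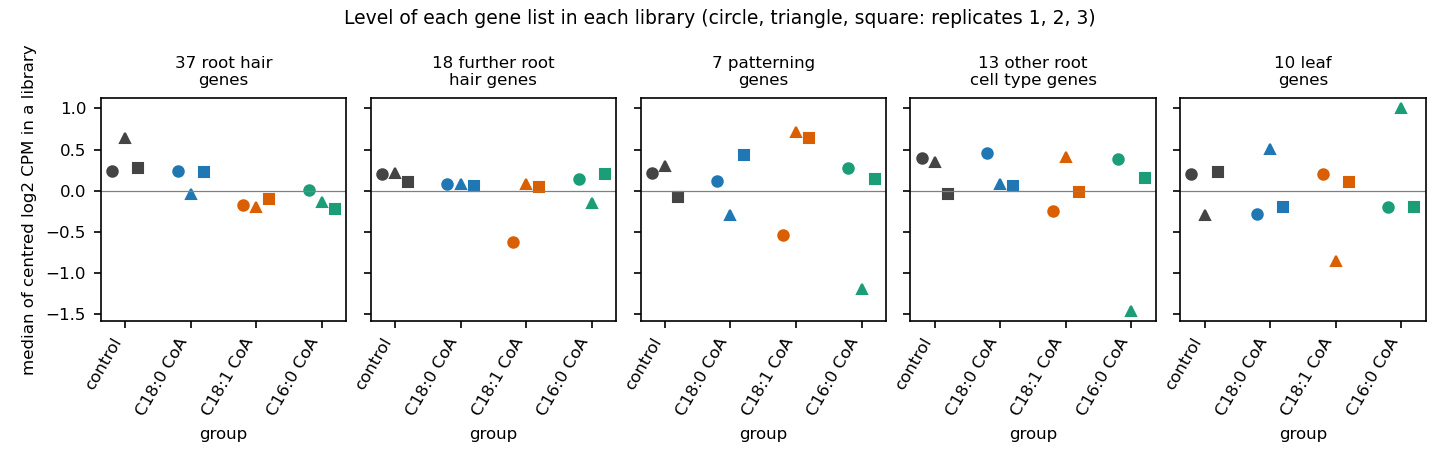
Median of centred log2 CPM (vertical axis) of each gene list in each library, by group, with a symbol for each replicate. For the 37 root hair genes the C18:1 CoA and C16:0 CoA libraries, from -0.22 to 0.01, lie below the controls, from 0.24 to 0.63, and C16:0 CoA replicate 2 stands apart in the lists of patterning (-1.20), other root cell type (-1.46) and leaf genes (1.01).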

How the data were processed

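RNA was sequenced from 12 libraries of wild-type seedlings, 3 per group, with a stranded paired-end kit per the labels' protocols. The authors deposited 1 table with exon reads per gene as counts, exon lengths and coordinates, the score of their own comparisons (a difference of weighted proportions) and FDR-corrected p-values from Baggerley's test, per the file headers. TAIR10 was named in the submitters' processing notes; which aligner and annotation version were used, and whether counting used strand, is not given in the sources used here. In that table, 1 row named no gene and held 0 exon reads, unique and total exon reads differed in 0 cells, and 0 columns belonged to a sample not listed.

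The deposited counts were filtered with filterByExpr, scaled by TMM and tested in edgeR 4.0.16 (R 4.3.3) with a quasi-likelihood fit of all 12 libraries and 4 groups, without covariates. Genes varied between replicates with a common biological coefficient of 0.229, and 10.5 degrees of freedom came from the prior. P-values were adjusted by Benjamini-Hochberg over 17036 genes, with a threshold of 0.05, and were two-sided. Centred levels used log2 CPM with a prior count of 2. The fits were tested on simulated data. DESeq2 1.42.0, limma voom 3.58.1, other filters and scalings, a gene-length trend, whole-gene reads, a replicate block, barcode and lane covariates and leaving out each library were tried. Same-numbered replicates of different groups did not consistently deviate together, which does not exclude pairing. Nothing beyond the labels says that the pools were separate cultures, so p-values measure the spread between these samples, which may be technical.

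The genes and lists were chosen with earlier results of these data known. Every library's value is given for EXPA7, COBL9, PRP3, PRP1, RHD6, RSL4 and RHD2, for the 2 genes of each role with the highest level per length and for the 3 with the smallest p against the control in each treatment; any other gene was chosen after its values were seen. Upstream windows came from the RefSeq genome TAIR10.1, and distances are to its gene starts; on each chromosome 48.3% to 51.6% of genes had exactly the deposited start or end there.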

Additional observations from a re-analysis of the deposited data

How the results depend on the processing

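No alternative called a root hair gene over all genes, and the medians against the control stayed negative in every alternative run. With C18:0 CoA the median rose as far as -0.03, and negative genes fell as low as 20, from 30 of 37. With C18:1 CoA, C16:0 CoA and the average the fewest negative genes were 31, 29 and 29. Counts at an unadjusted p below 0.05 in this section take either direction, and most have no share of all genes beside them. With sequencing lane as a covariate the median was -0.33 with C18:1 CoA, -0.26 for the average, 0.54 for C18:0 CoA against C16:0 CoA and 0.22 for C18:1 CoA against C16:0 CoA, and the genes at an unadjusted p below 0.05 were 0 with C18:1 CoA, 1 with C16:0 CoA, 1 for the average and 0 in each pair of acyl-CoAs. That fit called 1 gene of the genome with C18:0 CoA, 2 with C16:0 CoA, 1 for the average and 1 for C18:1 CoA against C16:0 CoA. It also turned PERK13 to 0.41 and PRP3 to 0.17 with C18:0 CoA, and RHD6 to -0.28 and RHS9 to 0.45 for the average. Lanes 5, 6, 7 and 8 each held 1 library, and those libraries did not inform the group differences of that fit. C18:1 CoA therefore rested on replicate 3 there, and C18:0 CoA on replicate 1. C18:0 CoA replicate 1 shared its lane only with C16:0 CoA replicate 3, not with a control. The cause of the changed signs was not tested.

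Without the 3 shallow libraries, root hair genes at an unadjusted p below 0.05 were 1 with C18:0 CoA, 21 with C18:1 CoA, 11 with C16:0 CoA and 8 for C18:1 CoA against C18:0 CoA, and 5, 2 and 1 genes of the genome were called with C18:1 CoA, with C16:0 CoA and for C18:1 CoA against C16:0 CoA. With C18:0 CoA the count was also 1 with no filter, with at least 10 reads in at least 3 libraries, within the shared barcode, with the length trend removed and in limma voom. Genes of the genome called with C18:1 CoA were 1 with no filter, 2 within the shared barcode (14 root hair genes at an unadjusted p below 0.05), 1 with the length trend removed, 1 in limma voom and 2 in DESeq2; for C18:1 CoA against C16:0 CoA they were 1 with no filter and 1 in DESeq2. With the barcode as a covariate the average's count was 7. For C18:1 CoA against C18:0 CoA the count was 3 with no filter and 3 in DESeq2, and for C18:0 CoA against C16:0 CoA 1 with whole-gene reads and 1 in DESeq2. No value within the shared barcode could be had for C16:0 CoA or the average.

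The replicate numbers gave no consistent pairing of the samples. Correlations of same-numbered libraries ran from -0.226 to 0.234, with 5 of 18 over 0.1, and 11 of 36 best matches shared the number. Depth differs between same-numbered libraries and can enter these correlations, so they cannot exclude pairing by number. With the replicate block the medians were -0.18, -0.57 and -0.38 with C18:0 CoA, C18:1 CoA and C16:0 CoA and -0.42 for the average, and the count for C18:1 CoA against C18:0 CoA was 3.

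Leaving out 1 library at a time, genes at an unadjusted p below 0.05 ranged from 0 to 1 with C18:0 CoA, 2 to 17 with C18:1 CoA, 2 to 10 with C16:0 CoA, 1 to 14 for the average, 2 to 7 for C18:1 CoA against C18:0 CoA, 1 to 4 for C18:0 CoA against C16:0 CoA and 1 to 2 for C18:1 CoA against C16:0 CoA. Genes of the genome called ranged from 0 to 1 with C18:1 CoA and for C18:1 CoA against C16:0 CoA. The medians ranged from -0.31 to -0.06 with C18:0 CoA, -0.69 to -0.35 with C18:1 CoA, -0.66 to -0.31 with C16:0 CoA, -0.55 to -0.30 for the average, -0.40 to -0.23 for C18:1 CoA against C18:0 CoA, 0.19 to 0.39 for C18:0 CoA against C16:0 CoA and -0.09 to 0.06 for C18:1 CoA against C16:0 CoA. Averaged log2 fold changes near 0 changed sign. RHD6 ranged from -0.20 to 0.17, and was negative when control replicate 1 (-0.15), replicate 3 of C18:0 CoA (-0.09), replicate 1 (-0.0072) or 2 (-0.20) of C18:1 CoA or replicate 1 of C16:0 CoA (-0.06) was left out. The averaged values of XTH14 ranged from -0.37 to 0.029, of RHS13 from -0.36 to 0.092, of RHS19 from -0.44 to 0.13 and of BST1 from -0.57 to 0.014, each highest without control replicate 2. Depth limits the genes of low level, since 3 reads stood for 8.85 CPM in the library with the fewest reads.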
